A study of Rattus norvegicus with 9 samples.

Results

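The genes described are the Wnt ligands, their receptors and co-receptors, the R-spondins, the secreted Wnt antagonists and a few intracellular feedback genes and transcription factors of the pathway. They were taken by symbol from the deposited expression table, as the members of the Wnt, Fzd, Sfrp, Dkk and Rspo families together with Frzb, Wif1, Lrp5, Lrp6, Ror1, Ror2, Ryk, Axin2, Lef1, Tcf7, Nkd1, Nkd2, Sost and Notum, and kept if above 0 TPM in 3 or more of the 9 libraries. TPM is a measure of transcript abundance that corrects for transcript length and for the total of the library. Of the 52 rows with such a symbol, 49 met the rule, among 16512 genes above 0 TPM in 3 or more libraries and 17602 genes in the table. Dkk1 and Wnt1, each above 0 in 3 libraries, were just inside the rule, and Sost (2 libraries), Wnt3a (1 library) and Wnt7a (1 library) were outside it. The 49 genes were 14 Wnt ligands, 10 frizzled receptors, 5 co-receptors and alternative receptors, 4 R-spondins, 11 secreted antagonists and 5 transcription factors and feedback genes.

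RNA was sequenced from the knees of wild-type male Lewis rats aged 10 to 12 weeks, in 3 groups of 3 libraries. The intact group was synovium, the lining tissue of the joint, from knees with no surgery. In the sham group the same tissue was taken 1 week after the joint capsule had been opened and closed. In the pMx group, partial meniscectomy removed the anterior part of the medial meniscus after transection of the meniscotibial ligament, and the regenerating tissue at that site was taken 1 week later with the synovium around it removed. The pMx and sham groups therefore differed in both the surgery and the tissue, whose parts in a difference cannot be told apart. The study's RNA quality record lists the RNA integrity number as lowest in the intact, higher in the sham and highest in the pMx samples without overlap, so RNA quality and group cannot be told apart either. The labels number the libraries of each group as biological replicates but do not state that they came from separate animals. The paper reports partial meniscectomy on both knees of an animal. The p-values therefore measure the spread between these libraries. In bulk tissue, fewer cells of a type and less RNA per cell also cannot be told apart.

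Wnt proteins are lipid-modified secreted ligands that bind frizzled receptors. With Lrp5 or Lrp6 as co-receptor they stabilise β-catenin, which acts in the nucleus with TCF/LEF transcription factors, whereas through Ror1, Ror2 and Ryk they act on cell polarity and movement without β-catenin. R-spondins keep frizzled receptors on the cell surface, while the Sfrp proteins, Wif1, Dickkopf (Dkk) proteins and Notum act outside the cell to restrain the ligands or co-receptors. In the joint, Wnt signaling is known for its part in joint formation, in the balance between cartilage and bone, and in synovial fibroblasts.

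Libraries were compared on the scale of log2(TPM + 1) with limma, fitted over all 16512 genes. A gene rose or fell where the Benjamini-Hochberg adjusted p was below 0.05, and was a differentially expressed gene (DEG) where its absolute log2 fold change was above 1 as well. For weakly expressed genes this scale compresses the fold change, and 15 of the 49 genes had a mean below 1 TPM. Between 15644 and 16125 genes were above 0 TPM in a library. The depth is unknown, as read numbers cannot be recovered from TPM, and precision is given by the 3 replicates. Intact replicate 3 stood apart from the other libraries on the second principal component, and its summed TPM of 7 skeletal muscle markers was 32019, against 47.2 and 142 in the other intact libraries and 150 to 2070 and 63.4 to 2007 in the sham and pMx libraries. Calls of the 49 genes that changed without it are given below.

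Markers of some other cells differed between the groups as well, and their part in the results below was not tested. All 7 adipocyte markers fell in pMx versus sham, with a summed TPM of 3505 to 8954 in the intact, 5603 to 6618 in the sham and 373 to 629 in the pMx libraries. All 6 Schwann cell markers fell as well (summed TPM 264 to 474, 321 to 400 and 79.1 to 96), and 6 of 6 cell cycle genes rose (18.1 to 20.9, 38.9 to 65.6 and 162 to 179). Of 6 synovial lining markers, 4 fell. Clic5 averaged 239 ± 76.5 TPM in the sham and 13.1 ± 4.2 TPM in pMx (SD, n = 3), while Prg4, which encodes lubricin, was at 1315 ± 118 and 1453 ± 335 TPM. Among pericyte and smooth muscle markers 2 of 5 fell, both as DEGs, beside 8.21% of all genes that were DEGs. The summed TPM of this list was 3149 to 5035 in the intact, 2302 to 2674 in the sham and 1235 to 1459 in the pMx libraries. Among endothelial markers 2 of 6 fell, and among macrophage markers 1 of 6 rose and 1 fell, the latter a DEG. Of all genes, 36.6% were called in this comparison, so the number of calls in these last lists was near the share of all genes. Of 7 fibrocartilage markers, 3 rose and 1 fell, the latter being Cnmd, which was listed at 0 in all 3 pMx libraries. Cnmd thus met the detection rule through intact and sham libraries alone and could not rise in pMx. Thy1, 1 of 5 sublining fibroblast markers, rose from 326 ± 75.9 to 1037 ± 62.2 TPM (SD, n = 3), whereas Dpp4 and Pi16 of that list fell.

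In pMx versus sham, which asks how the regenerating tissue differed from operated synovium, 26 of the 49 genes were called, against 36.6% of all genes tested. Of these, 11 rose and 15 fell, where 17.7% of all genes rose and 18.9% fell. The falls include Notum, which met the detection rule through intact and sham libraries alone and so could not rise in pMx. DEGs were 13 of the 49 genes, against 8.21% of all genes. In the pMx group 6 of them were higher and 7 lower, beside 3.36% and 4.85% of all genes. The higher DEGs were Wnt2b, Wnt5a, Fzd1, Fzd2, Ror2 and Sfrp1, and the lower DEGs were Wnt11, Fzd4, Rspo3, Dkk2, Sfrp2, Sfrp4 and Sfrp5. Ligands, frizzled receptors and secreted antagonists held DEGs in both directions, the receptors beside them a higher DEG and the R-spondins a lower DEG. The median log2 fold change of the 49 genes was -0.04 and that of all genes -0.01, while the median absolute values were 0.49 and 0.23. In 32 of the 49 genes the pMx and sham libraries did not overlap, as in 56.1% of all genes, with pMx higher in 13 and lower in 19 (27.0% and 29.0% of all genes).

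**Figure D1:**
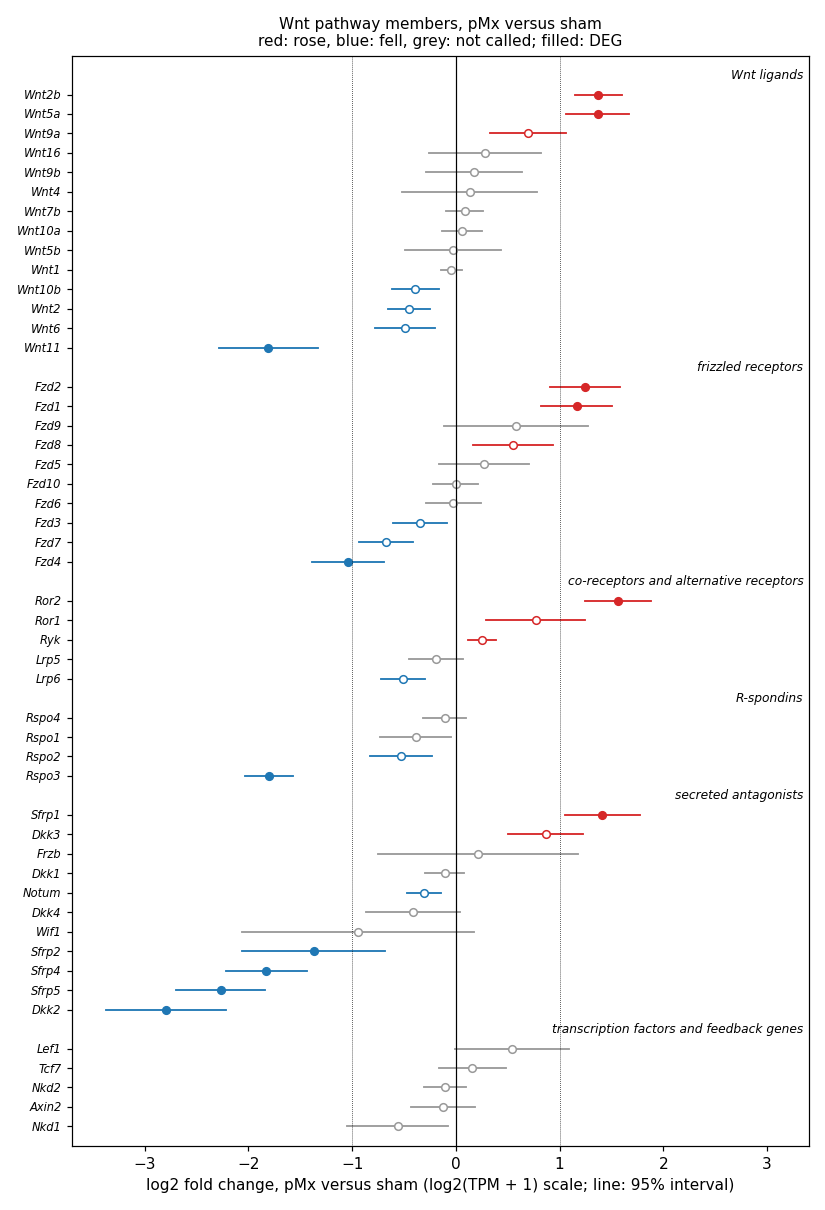
Log2 fold change of each of the 49 genes in pMx versus sham on the log2(TPM + 1) scale (x axis), grouped by role, with horizontal lines for the 95% interval of the limma fit. Red points rose, blue points fell, grey points were not called, and filled points are DEGs. Dotted lines mark the fold threshold of the DEGs. Ror2 lies farthest to the right at 1.57 and Dkk2 farthest to the left at -2.80, and no transcription factor or feedback gene is called.

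Among the ligands, 3 rose, 4 fell and 7 were not called in pMx versus sham, where 17.7% of all genes rose and 18.9% fell. Wnt5a (gene ID 64566), the ligand best known for signaling through Ror2 without β-catenin, measured 2.79, 3.06 and 2.25 TPM in the intact libraries, 3.89, 4.17 and 3.1 TPM in the sham libraries and 11.13, 9.95 and 12.35 TPM in the pMx libraries. Every pMx library lay above every sham and intact library. The level rose 3-fold over sham in the ratio of mean TPM (log2 fold change 1.37, SE 0.13, adjusted p = 1.48e-04). From intact to sham the libraries did not overlap either, although the difference was not called (log2 fold change 0.35, SE 0.13, adjusted p = 0.126).

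Wnt2b (gene ID 116466), a ligand of the β-catenin branch, was close to 0 in synovium. It measured 0.2, 0.3 and 0.14 TPM in the intact libraries, 0.4, 0.4 and 0.25 TPM in the sham libraries and 2.74, 2.73 and 2.06 TPM in the pMx libraries. Only the pMx libraries exceeded 1 TPM, and the difference from sham passed the test (log2 fold change 1.37, SE 0.1, adjusted p = 4.34e-05). With a pseudocount of 0.1 in place of 1, the log2 fold change was 2.54.

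Wnt11 (gene ID 140584), another ligand that acts largely without β-catenin, moved the other way. Its values were 13.12, 11 and 7.22 TPM in the intact libraries, 8.05, 6.03 and 8.49 TPM in the sham libraries and 1.3, 1.75 and 1.22 TPM in the pMx libraries. The pMx libraries were all below the others, which overlapped among themselves. In mean TPM the sham level was 5.29 times that of pMx (log2 fold change -1.81, SE 0.21, adjusted p = 3.18e-04), and sham versus intact was not called (log2 fold change -0.4, SE 0.21, adjusted p = 0.25). Without Intact replicate 3, the lowest of the intact libraries, sham was lower than intact (log2 fold change -0.62, adjusted p = 0.0387).

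Wnt5b, the closest relative of Wnt5a and the ligand with the highest mean TPM over all libraries, was not called in any comparison over all libraries. It measured 13.92, 10.71 and 6.9 TPM in the intact libraries, 10.07, 9.31 and 8.95 TPM in the sham libraries and 8.58, 9.17 and 10.09 TPM in the pMx libraries. The ranges overlapped in all comparisons, and the 95% interval of the pMx versus sham difference was -0.49 to 0.44 on the log2 scale. Without Intact replicate 3, Wnt5b fell in pMx versus intact (log2 fold change -0.37, adjusted p = 0.0361), against -0.12 and 0.664 over all libraries. Wnt9a, which takes part in the formation of synovial joints, rose from 4.31 ± 0.429 to 7.61 ± 0.857 TPM (SD, n = 3, log2 fold change 0.7, SE 0.16, adjusted p = 0.00958).

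The remaining calls among the ligands were falls of genes at about 1 TPM or less. Wnt6 fell from 0.743 ± 0.186 to 0.24 ± 0.104 TPM (log2 fold change -0.49, SE 0.13, adjusted p = 0.0155) and Wnt2 from 0.503 ± 0.127 to 0.1 ± 0.0964 TPM (SD, n = 3, log2 fold change -0.45, SE 0.09, adjusted p = 0.00435). Wnt10b, known for favouring bone over fat formation, fell by 0.39 on the log2 scale in pMx versus sham (adjusted p = 0.0139) and rose by 0.53 in sham versus intact (adjusted p = 0.0132). The fall of Wnt6 was not called without Sham replicate 3, pMx replicate 2 or pMx replicate 3 (adjusted p up to 0.0592). For Wnt10b, the fall was not called without pMx replicate 3 (adjusted p = 0.0507), and the rise was not called without Sham replicate 2 (adjusted p = 0.0504). With quantile scaling neither fall was called (log2 fold change -0.36 for Wnt6 and -0.20 for Wnt10b). The fall of Wnt10b was not called with a pseudocount of 0.01 either (adjusted p = 0.0503). Wnt1, Wnt4, Wnt7b, Wnt9b, Wnt10a and Wnt16, with means below 1 TPM, were not called.

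The summed TPM of the 14 ligands was 31.8 ± 4.95 in the intact, 29.5 ± 1.12 in the sham and 35.6 ± 1.11 in the pMx group (SD, n = 3), while the makeup of that sum differed. Wnt11 took 27.3 to 36.2% of it in the intact, 21 to 29.3% in the sham and 3.31 to 4.99% in the pMx libraries. For Wnt5a these shares were 7.7 to 9.34%, 10.7 to 14.5% and 28.4 to 33.5%. Wnt5b and Wnt5a were thus the ligands with the largest shares in pMx, and Wnt5b and Wnt11 those with the largest shares in intact and sham.

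Among the frizzled receptors, 3 rose, 3 fell and 4 were not called in pMx versus sham, where 17.7% of all genes rose and 18.9% fell. Fzd2 (gene ID 64512), a receptor that can bind Wnt5a, had the highest mean TPM over all libraries in this family. It measured 18.45, 20.25 and 14.8 TPM in the intact libraries, 31.44, 42.09 and 30.64 TPM in the sham libraries and 81.89, 90.93 and 76.15 TPM in the pMx libraries. The 3 groups did not overlap and stood in the order intact, sham and pMx. Fzd2 rose in sham versus intact (log2 fold change 0.92, SE 0.15, adjusted p = 0.00912) and was higher again in pMx versus sham (log2 fold change 1.24, SE 0.15, adjusted p = 3.57e-04). Leaving out Intact replicate 3, the lowest library, gave a log2 fold change of 0.80 for sham versus intact (adjusted p = 0.01).

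Fzd1 (gene ID 58868) measured 11.96, 12.66 and 10.96 TPM in the intact libraries, 14.73, 16.55 and 11.79 TPM in the sham libraries and 34.51, 38.45 and 27.32 TPM in the pMx libraries. All pMx libraries were above the others, and the sham and intact ranges overlapped. The pMx mean was 2.33 times the sham mean (log2 fold change 1.16, SE 0.15, adjusted p = 5.27e-04), and sham versus intact was not called (adjusted p = 0.324). Fzd8 also rose, from 22.7 ± 3.22 to 33.7 ± 3.6 TPM (SD, n = 3, log2 fold change 0.55, SE 0.17, adjusted p = 0.032), but its call was lost in 4 of the 9 fits that left out a library, which were those without Sham replicate 2 or 3 or pMx replicate 1 or 3 (adjusted p up to 0.108).

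Fzd4 (gene ID 64558), known as a receptor in blood vessels that also binds the ligand norrin, was lower in pMx. Its levels were 53.58, 47.75 and 34.38 TPM in the intact libraries, 35.9, 34.03 and 31.37 TPM in the sham libraries and 15.71, 14.45 and 17.63 TPM in the pMx libraries. The pMx libraries all lay below the sham libraries, and the sham and intact ranges overlapped. The sham mean was 2.12 times the pMx mean (log2 fold change -1.04, SE 0.15, adjusted p = 0.00102). Without Intact replicate 3, sham was also below intact (log2 fold change -0.57, adjusted p = 0.00934).

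Fzd7 (gene ID 100360552), a receptor of the β-catenin branch, measured 14.37, 18.47 and 17.07 TPM in the intact libraries, 12.69, 12.4 and 13.04 TPM in the sham libraries and 8.11, 8.24 and 6.59 TPM in the pMx libraries. The groups did not overlap and stood in the order pMx, sham and intact from low to high. The fall in pMx versus sham was called (log2 fold change -0.67, SE 0.11, adjusted p = 0.00212), while sham versus intact was not (log2 fold change -0.36, SE 0.11, adjusted p = 0.0758). In pMx versus intact Fzd7 was a DEG (log2 fold change -1.03, SE 0.11, adjusted p = 1.13e-04). Fzd3 fell slightly, from 3.15 ± 0.357 to 2.26 ± 0.256 TPM (SD, n = 3, log2 fold change -0.35, SE 0.11, adjusted p = 0.0421), and this call was lost in 7 of the 9 fits that left out a library, all but those without Intact replicate 1 or 3 (adjusted p up to 0.139). The call of Fzd3 was also lost with quantile scaling, median-of-ratios scaling and a replicate block (adjusted p up to 0.166). Fzd9 measured 0.523 ± 0.196 and 1.27 ± 0.127 TPM without a call over all libraries (log2 fold change 0.58, SE 0.3, adjusted p = 0.174), but rose without Intact replicate 2 (adjusted p = 0.0305) or Intact replicate 3 (adjusted p = 0.0477) and in the fit on the 6 pMx and sham libraries (adjusted p = 0.00531). Fzd5, Fzd6 and Fzd10 were not called in pMx versus sham. Without Intact replicate 3, Fzd8 fell in sham versus intact (log2 fold change -0.48, adjusted p = 0.0333) and Fzd6 in pMx versus intact (log2 fold change -0.39, adjusted p = 0.0178).

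As a sum, the 10 frizzled genes measured 153 ± 19.5 TPM in the intact, 144 ± 8.95 TPM in the sham and 200 ± 8.38 TPM in pMx (SD, n = 3). The share of Fzd2 was 11.4 to 12.2% in the intact, 21.3 to 28% in the sham and 40 to 43.9% in the pMx libraries. Fzd4 showed the opposite order, with 26.4 to 33%, 22.6 to 24.3% and 6.97 to 9.25%. Endothelial markers, which belong to a cell type known to carry Fzd4, summed to 622 to 660 TPM in the sham and 524 to 661 TPM in the pMx libraries, and their part in the fall of Fzd4 was not tested.

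**Figure D2:**
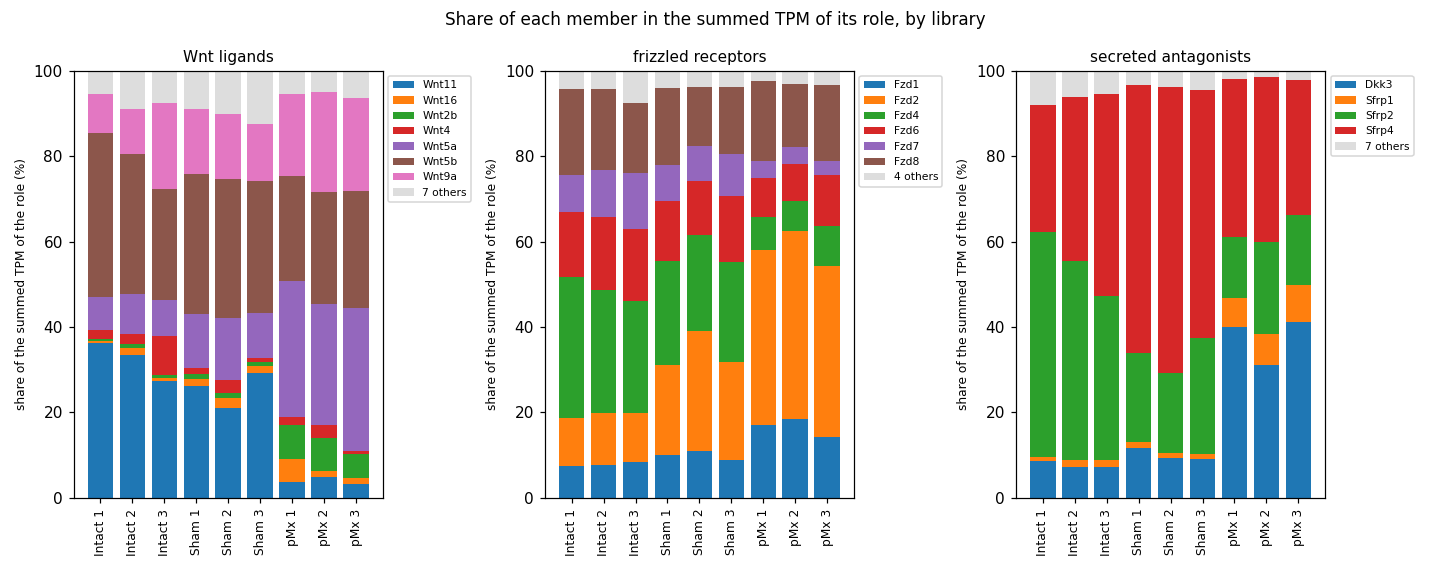
Share of each gene in the summed TPM of its role (y axis, %), for each of the 9 libraries (x axis), in the Wnt ligands, the frizzled receptors and the secreted antagonists. Genes that reached 5% in at least 1 library have a color and the rest are summed in grey. Wnt5a, Fzd2 and Dkk3 take larger shares, and Wnt11 and Fzd4 smaller shares, in the pMx libraries than in the sham and intact libraries.

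The alternative receptors rose while Lrp6 fell. Ror2 (gene ID 306782), the receptor kinase that binds Wnt5a, measured 2.93, 3.77 and 2.39 TPM in the intact libraries, 6.92, 7.27 and 6.01 TPM in the sham libraries and 21.55, 23.96 and 20.13 TPM in the pMx libraries. The groups did not overlap and were ordered intact, sham and pMx. Ror2 rose in sham versus intact (log2 fold change 0.95, SE 0.14, adjusted p = 0.00633) and in pMx versus sham (log2 fold change 1.57, SE 0.14, adjusted p = 9.71e-05), where the pMx mean was 3.25 times the sham mean. This was the largest increase of the 49 genes on the scale of log2(TPM + 1), while with a pseudocount of 0.1 Wnt2b came first (2.54 against 1.69 for Ror2). Compared with intact synovium the log2 fold change was 2.52 (SE 0.14, adjusted p = 4.36e-06).

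Its paralog Ror1 rose from 3.18 ± 0.56 to 6.14 ± 1.05 TPM (SD, n = 3, log2 fold change 0.77, SE 0.21, adjusted p = 0.0195), with the call lost in 4 of the 9 fits that left out a library, those without Sham replicate 2 or 3 or pMx replicate 1 or 2 (adjusted p up to 0.0727). In pMx versus intact the rise of Ror1 (log2 fold change 0.62, SE 0.21, adjusted p = 0.0341) was lost in 5 of these 9 fits, those without Intact replicate 1 or 3, Sham replicate 2 or pMx replicate 1 or 2 (adjusted p up to 0.113). Ryk, an atypical Wnt receptor with an inactive kinase domain and the receptor with the highest mean TPM, measured 71.15, 64.43 and 74.54 TPM in the intact libraries, 71.03, 70.12 and 68.06 TPM in the sham libraries and 81.79, 84.02 and 83.59 TPM in the pMx libraries. The pMx libraries were all above the sham libraries, although the rise was small (log2 fold change 0.25, SE 0.06, adjusted p = 0.0115).

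Of the β-catenin co-receptors, Lrp6 fell from 36.7 ± 1.93 to 25.5 ± 1.11 TPM (SD, n = 3, log2 fold change -0.51, SE 0.09, adjusted p = 0.00293). Lrp5 was 36 ± 6 TPM in the intact, 26.7 ± 1.11 TPM in the sham and 23.3 ± 1.19 TPM in pMx (SD, n = 3), with no call in pMx versus sham over all libraries (log2 fold change -0.19, SE 0.11, adjusted p = 0.238). It fell in that comparison without Intact replicate 3 (adjusted p = 0.0284) and in the fit on the 6 pMx and sham libraries (adjusted p = 0.0416). In pMx versus intact, Lrp5 fell (log2 fold change -0.6, SE 0.11, adjusted p = 0.00255). In sham versus intact Lrp5 was not called over all libraries (adjusted p = 0.0518) and fell without Intact replicate 3 (adjusted p = 0.00354).

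None of the 4 R-spondins rose in any comparison. Of all genes, 17.7% rose in pMx versus sham, 6.73% in sham versus intact and 23.4% in pMx versus intact. At these shares, 4 genes are too few for the lack of a rise to be read as a result. Rspo3 (gene ID 498997) measured 4.47, 5.01 and 5.92 TPM in the intact libraries, 3, 2.81 and 3.2 TPM in the sham libraries and 0.15, 0.15 and 0.14 TPM in the pMx libraries. The groups did not overlap, and the pMx libraries were all close to 0. It fell in sham versus intact (log2 fold change -0.61, SE 0.1, adjusted p = 0.00978; adjusted p = 0.0513 in the fit on the 6 sham and intact libraries) and fell in pMx versus sham as well (log2 fold change -1.8, SE 0.1, adjusted p = 1.95e-05), where the sham mean was 20.5 times the pMx mean. With a pseudocount of 0.1 the latter log2 fold change was -3.65.

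Rspo2 (gene ID 500863), known for its role in limb development, was the R-spondin with the highest mean TPM. Its values were 10.57, 12.97 and 12.37 TPM in the intact libraries, 6.08, 5.23 and 6.92 TPM in the sham libraries and 3.39, 4.45 and 3.84 TPM in the pMx libraries. Again the groups did not overlap and were ordered from intact down to pMx. The fall was called in sham versus intact (log2 fold change -0.88, SE 0.13, adjusted p = 0.0069) and in pMx versus sham (log2 fold change -0.53, SE 0.13, adjusted p = 0.0133), the latter except in 2 of the 9 fits that left out a library (without Sham replicate 3 or pMx replicate 1, adjusted p up to 0.0522). Rspo1 was at 8.52 ± 0.956 TPM in the sham and 6.28 ± 0.882 TPM in pMx (SD, n = 3) and was not called over all libraries (log2 fold change -0.39, SE 0.15, adjusted p = 0.0747), but fell without Intact replicate 3 (adjusted p = 0.0475) and in the fit on the 6 pMx and sham libraries (adjusted p = 0.0456). Rspo4 was below 1 TPM in every library.

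The R-spondin sum was 24.5 ± 0.586 TPM in the intact, 17.7 ± 2.03 TPM in the sham and 10.4 ± 1.06 TPM in pMx (SD, n = 3), and the 3 ranges did not overlap. In pMx, Rspo1 had the highest mean of the 4. Beside the falls of Rspo2 and Rspo3 between intact and sham, 4 of 6 synovial lining markers fell in the same comparison, as did 5.97% of all genes. The summed TPM of these markers was 3022 to 4088 in the intact and 1690 to 2203 in the sham libraries. The part of those cells in the falls was not tested.

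The secreted antagonists were the most abundant of these genes. In pMx versus sham 2 of them rose, 5 fell and 4 were not called, beside 17.7% of all genes that rose and 18.9% that fell. Sfrp4 (gene ID 89803), a secreted frizzled-related protein that binds Wnt ligands, had the highest mean TPM of the 49 genes. It measured 138.01, 176.32 and 156.37 TPM in the intact libraries, 325.24, 431.94 and 342 TPM in the sham libraries and 96.93, 128.61 and 84.55 TPM in the pMx libraries. The sham libraries were above all others, and the pMx libraries were below all intact libraries. Sfrp4 was the 1 DEG in sham versus intact (log2 fold change 1.21, SE 0.17, adjusted p = 0.00571), and in pMx versus sham it was a DEG in the other direction (log2 fold change -1.83, SE 0.17, adjusted p = 1.18e-04). In pMx versus intact it fell by less (log2 fold change -0.61, SE 0.17, adjusted p = 0.0157), and that call was lost without Intact replicate 2, pMx replicate 1 or pMx replicate 3 (adjusted p up to 0.0552).

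Sfrp2 (gene ID 310552), a related protein with high levels in fibroblasts, measured 243.39, 213.6 and 126.64 TPM in the intact libraries, 107.9, 121.33 and 159.76 TPM in the sham libraries and 36.86, 71.53 and 44.18 TPM in the pMx libraries. The pMx libraries were below all others, while the sham and intact ranges overlapped. The fall in pMx versus sham was 2.55-fold in mean TPM (log2 fold change -1.37, SE 0.3, adjusted p = 0.00785). Sham versus intact was not called (log2 fold change -0.55, SE 0.3, adjusted p = 0.275), nor was it without Intact replicate 3 (log2 fold change -0.83, adjusted p = 0.0715).

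Sfrp5 (gene ID 309377), a family member known from adipose tissue, measured 4.85, 8.05 and 4.65 TPM in the intact libraries, 4.53, 5.01 and 5.16 TPM in the sham libraries and 0.25, 0.38 and 0.06 TPM in the pMx libraries. All pMx libraries were below 1 TPM and far below the other groups, which overlapped. The log2 fold change in pMx versus sham was -2.27 (SE 0.19, adjusted p = 7.04e-05), and -0.18 without a call in sham versus intact (adjusted p = 0.574). The adipocyte markers, which all fell in the same comparison, differed between these groups by -7.36 for Adipoq and -3.32 for Fabp4 on the log2 scale, and their part in the fall of Sfrp5 was not tested.

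Dkk2 (gene ID 295445), which binds Lrp5 and Lrp6, had the largest decrease of the 49 genes in pMx versus sham on the scale of log2(TPM + 1). With a pseudocount of 0.1, Sfrp5 came first (-4.06 against -3.71 for Dkk2). Its values were 10.38, 15.19 and 8.17 TPM in the intact libraries, 8.01, 11.99 and 15.07 TPM in the sham libraries and 0.81, 0.92 and 0.61 TPM in the pMx libraries. The pMx libraries were all below 1 TPM, and the intact and sham ranges overlapped. The sham mean was 15 times the pMx mean (log2 fold change -2.8, SE 0.25, adjusted p = 1.04e-04), while the sham versus intact difference had a 95% interval of -0.52 to 0.63 on the log2 scale.

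Sfrp1 (gene ID 84402) was the Sfrp family member that rose. It measured 5.37, 8.02 and 5.86 TPM in the intact libraries, 6.68, 7.96 and 7.75 TPM in the sham libraries and 17.93, 24.11 and 22.8 TPM in the pMx libraries. The pMx libraries were all above the others, and the sham and intact ranges overlapped. The pMx mean was 2.9 times the sham mean (log2 fold change 1.41, SE 0.16, adjusted p = 2.71e-04).

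Dkk3 (gene ID 171548), a divergent Dickkopf protein not known to block Lrp5 and Lrp6 as the others do, rose in both sham versus intact and pMx versus sham. It measured 39.49, 33.09 and 23.61 TPM in the intact libraries, 60.52, 60.14 and 53.09 TPM in the sham libraries and 104.69, 103.65 and 110.71 TPM in the pMx libraries. The groups did not overlap and were ordered intact, sham and pMx. Dkk3 rose in sham versus intact (log2 fold change 0.86, SE 0.16, adjusted p = 0.0135) and in pMx versus sham (log2 fold change 0.87, SE 0.16, adjusted p = 0.00304). The former call was lost without Sham replicate 1 or 2 (adjusted p up to 0.0563) and in the fit on the 6 sham and intact libraries (adjusted p = 0.057).

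Of the other antagonists, Wif1 measured 4.17 ± 4.5, 2.49 ± 0.83 and 0.783 ± 0.0874 TPM in the intact, sham and pMx groups (SD, n = 3). The pMx and sham libraries did not overlap, but the difference was not called (log2 fold change -0.94, SE 0.49, adjusted p = 0.171), and Intact replicate 1, which is in neither of these groups but enters the shared estimate of the spread, reached 9.36 TPM. Without Intact replicate 1 the fall of Wif1 was called (adjusted p = 0.00398), as in the fit on the 6 pMx and sham libraries (adjusted p = 0.00529). Wif1 was also called in pMx versus intact without Intact replicate 3 (log2 fold change -1.49, adjusted p = 0.044), and not over all libraries (adjusted p = 0.0717). Frzb and Dkk4 were not called either (log2 fold change 0.22, SE 0.42, adjusted p = 0.738 for Frzb and log2 fold change -0.41, SE 0.2, adjusted p = 0.143 for Dkk4), although Dkk4 was called without Sham replicate 3 (adjusted p = 0.0485). Frzb too was high in Intact replicate 1 (11.49 TPM, against 3.18 and 2.68 TPM in the other intact libraries), and was not called in pMx versus sham without that library. Dkk1, which was above 0 in only 3 libraries, was listed at 0 in all pMx libraries.

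The antagonist sum was 418 ± 75.5 TPM in the intact, 584 ± 64 TPM in the sham and 287 ± 39.2 TPM in the pMx libraries (SD, n = 3). Sfrp4 made up 58.1 to 66.9% of it in the sham libraries, compared with 29.8 to 47.3% in the intact and 31.5 to 38.7% in the pMx libraries. The share of Dkk3 was 7.14 to 8.53%, 9.02 to 11.7% and 31.2 to 41.3% in the intact, sham and pMx libraries. 

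**Figure D3:**
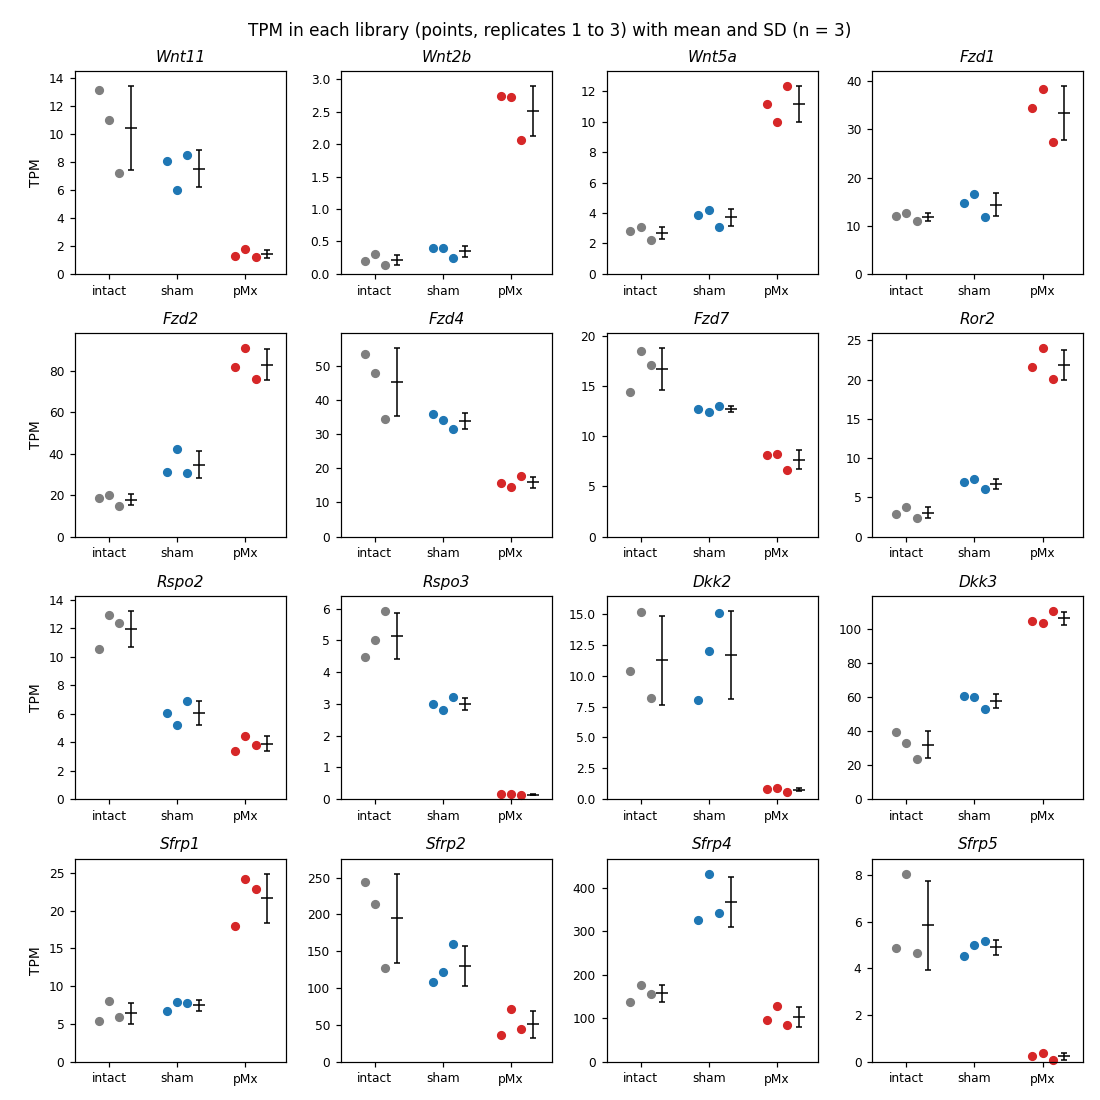
TPM (y axis, linear from 0) of the 16 genes that were DEGs in at least 1 of the 3 comparisons, in each library of the intact (grey), sham (blue) and pMx (red) groups. Horizontal ticks with bars give the mean and SD of 3 libraries. Fzd2, Ror2 and Dkk3 increase from intact to sham to pMx without overlap, Rspo2 and Rspo3 decrease in the same order, and Sfrp4 is highest in the sham libraries.

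Genes that act inside the cell and are known as targets of β-catenin and TCF/LEF were described next. Of Axin2, Lef1, Tcf7, Nkd1 and Nkd2, none was called in pMx versus sham or in sham versus intact by limma, at adjusted p values of 0.0697 to 0.52 and 0.0662 to 0.691. Of all genes, 36.6% and 12.7% were called in these comparisons, and 5 genes are too few to show the absence of a change. At an unadjusted p below 0.05 there was 1 of the 5 in each comparison, Nkd1 in pMx versus sham and Nkd2 in sham versus intact. Without Intact replicate 3 both passed the adjusted test as well (adjusted p = 0.0262 for Nkd1 and 0.0473 for Nkd2), as did Nkd1 without Intact replicate 2 (adjusted p = 0.0148) and in the fit on the 6 pMx and sham libraries (adjusted p = 0.00969). Axin2, the scaffold protein of the β-catenin destruction complex and a feedback target, measured 2.48, 2.07 and 1.5 TPM in the intact libraries, 2.56, 2.53 and 2.64 TPM in the sham libraries and 1.96, 2.7 and 2.22 TPM in the pMx libraries. The pMx range covered most of the intact and sham values, and all sham libraries were above all intact libraries without a call (adjusted p = 0.252). The difference of pMx from sham was -0.13 on the log2 scale with a 95% interval of -0.44 to 0.18.

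Nkd1 encodes a feedback inhibitor that binds Dishevelled, and had the highest mean TPM of these genes. Its levels were 13.69, 21.06 and 10.84 TPM in the intact libraries, 9.98, 10.62 and 13.5 TPM in the sham libraries and 7.56, 7.58 and 6.83 TPM in the pMx libraries. All pMx libraries were below all sham libraries, but the difference was not called (log2 fold change -0.56, SE 0.21, adjusted p = 0.0697). In pMx versus intact, Nkd1 fell (log2 fold change -0.91, SE 0.21, adjusted p = 0.00685). Its paralog Nkd2 measured 8.14, 8.19 and 8.84 TPM in the intact libraries, 11.07, 10.16 and 10.25 TPM in the sham libraries and 9.69, 8.84 and 10.58 TPM in the pMx libraries. The sham libraries were above the intact libraries without a call (log2 fold change 0.29, SE 0.09, adjusted p = 0.0662), and the pMx libraries overlapped both groups.

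Of the TCF/LEF factors, Lef1 measured 0.87, 1.1 and 0.34 TPM in the intact libraries, 0.64, 0.44 and 0.4 TPM in the sham libraries and 0.8, 0.79 and 2.15 TPM in the pMx libraries. All pMx libraries were above all sham libraries, the highest being replicate 3. No comparison was called over all libraries (log2 fold change 0.54, SE 0.24, adjusted p = 0.116 in pMx versus sham). With a covariate for skeletal muscle in the limma fit, the rise of Lef1 in pMx versus sham was called (adjusted p = 0.0329), as was the fall of Nkd1. Tcf7 measured 6.35, 5.87 and 4.34 TPM in the intact libraries, 6.69, 5.2 and 5.97 TPM in the sham libraries and 6.41, 6.62 and 7.21 TPM in the pMx libraries, with a 95% interval of -0.16 to 0.48 for pMx versus sham. The sham and pMx ranges of Tcf7 overlapped, and all pMx libraries were above all intact libraries without a call (adjusted p = 0.155).

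Notum, a secreted enzyme that removes the lipid from Wnt ligands and is itself a known target of the pathway, was above 0 in 6 libraries. It measured 0.13, 0.05 and 0.24 TPM in the intact libraries, 0.17, 0.23 and 0.32 TPM in the sham libraries and 0, 0 and 0 TPM in the pMx libraries. It was thus listed at 0 in the pMx group and above 0 in every other library, always below 1 TPM, and the fall in pMx versus sham was called (adjusted p = 0.0101). Notum, Wnt1 and Dkk1 met the detection rule through intact and sham libraries alone.

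**Figure D4:**
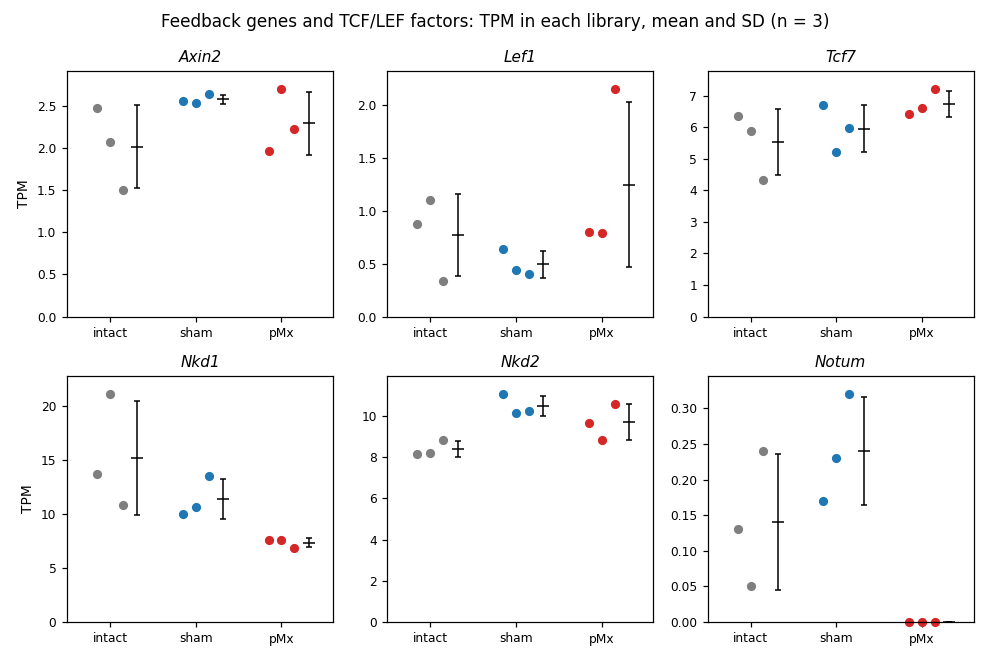
TPM (y axis, linear from 0) of Axin2, Lef1, Tcf7, Nkd1, Nkd2 and Notum in each library of the intact (grey), sham (blue) and pMx (red) groups, with ticks and bars for the mean and SD of 3 libraries. Axin2 and Tcf7 overlap between sham and pMx. Lef1 is higher and Nkd1 lower in the pMx than in the sham libraries, both without a call, and Notum is listed at 0 in all pMx libraries.

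Promoters were searched for the core words of the TCF/LEF motif, since the genes above differ in whether they are known targets. RefSeq (GRCr8) gave a window of 250 bases before to 50 bases after the start site for 33 of the 49 genes, all matched by gene ID. The words searched on both strands were CTTTGAA, the related word CTTTGAT, the word CTTTGTA and lastly the word CTTTGTT, and 6 of the 33 windows (18.2%) held at least 1, as did 5719 of all 33469 windows (17.1%). By call in pMx versus sham, these were 0 of 8 windows of genes that rose, 2 of 8 of genes that fell (Fzd7 and Sfrp5) and 4 of 17 of genes not called (Axin2, Dkk1, Nkd1 and Tcf7). The bases before the start site are shown for Axin2, the gene with words at -232 and -132, for Nkd1, with a word at -141, and for Sfrp5, which fell most of the genes with a word and carries it at -112 on the opposite strand. Positions are those of the first base of the word relative to the start site, and capitals mark the words, none of which overlap. The sequences are written 5′ to 3′ on the strand of the gene, which is the plus strand for Axin2 (chr10:94398535-94398784) and the minus strand for Nkd1 (chr19:34722847-34723096) and Sfrp5 (chr1:250960513-250960762), all in GRCr8.
Axin2: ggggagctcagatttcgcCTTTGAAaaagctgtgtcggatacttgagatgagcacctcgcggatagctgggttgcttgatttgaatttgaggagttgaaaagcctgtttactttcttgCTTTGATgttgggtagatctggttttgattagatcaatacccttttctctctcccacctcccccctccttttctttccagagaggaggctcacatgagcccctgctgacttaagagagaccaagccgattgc
Nkd1: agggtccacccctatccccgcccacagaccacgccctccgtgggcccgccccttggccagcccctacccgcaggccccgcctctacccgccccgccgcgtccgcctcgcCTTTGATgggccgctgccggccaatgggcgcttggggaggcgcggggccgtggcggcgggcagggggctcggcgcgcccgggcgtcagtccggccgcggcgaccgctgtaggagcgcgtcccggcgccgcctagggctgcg
Sfrp5: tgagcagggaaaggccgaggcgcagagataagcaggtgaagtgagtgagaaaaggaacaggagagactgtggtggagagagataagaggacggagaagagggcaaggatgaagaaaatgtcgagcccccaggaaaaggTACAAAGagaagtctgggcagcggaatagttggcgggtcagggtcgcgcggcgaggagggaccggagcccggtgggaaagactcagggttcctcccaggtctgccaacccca
A match describes these letters only, and the share among these genes was close to that of all windows.

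In sham versus intact, which asks what opening the joint did to the synovium, 7 of the 49 genes were called, compared with 12.7% of all genes. Wnt10b, Fzd2, Ror2, Dkk3 and Sfrp4 rose, and Rspo2 and Rspo3 fell, so that 5 rose and 2 fell beside 6.73% and 5.97% of all genes. Sfrp4 was the only DEG, against 1.96% of all genes (1.42% higher and 0.533% lower). Without Intact replicate 3, 12 genes were called, the further ones being Wnt11, Fzd4, Fzd8, Lrp5 and Nkd2. The share of all genes called in that fit was not computed, so the 12 genes cannot be set against the 12.7%. Fzd7 was called as well without Intact replicate 1 (adjusted p = 0.0399) and Fzd9 without Intact replicate 2 (adjusted p = 0.02). The sham and intact libraries did not overlap in 16 of the 49 genes, as in 30.6% of all genes, with sham higher in 9 and lower in 7 (14.2% and 16.4% of all genes). Of the genes called over all libraries, Fzd2, Ror2 and Dkk3 rose and Rspo2 and Rspo3 fell both from intact to sham and from sham to pMx, whereas Wnt10b and Sfrp4 rose in the former and fell in the latter. These comparisons share the sham libraries and are therefore not independent.

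In pMx versus intact, 25 of the 49 genes were called, beside 50.6% of all genes. Of these, 10 rose and 15 fell, compared with 23.4% and 27.1% of all genes. There were 15 DEGs, against 14.3% of all genes, and 7 of them were higher and 8 lower (6.4% and 7.89% of all genes). The libraries of these groups did not overlap in 27 of the 49 genes, as in 57.5% of all genes, with pMx higher in 10 and lower in 17 (26.9% and 30.6% of all genes). Dkk3 (log2 fold change 1.73, SE 0.16, adjusted p = 3.91e-05), Fzd7 and Rspo2 (log2 fold change -1.41, SE 0.13, adjusted p = 4.32e-05) were DEGs here and not in pMx versus sham, and Sfrp4 was a DEG in pMx versus sham and not here. On the scale of log2(TPM + 1) the largest increases were those of Ror2 and Fzd2, with log2 fold changes of 2.52 and 2.16, and the largest decreases those of Dkk2, Sfrp5, Rspo3 and Wnt11, with -2.75, -2.45, -2.41 and -2.21. With a pseudocount of 0.1 the increase of Wnt2b was the largest, at 3.08 against 2.83 for Ror2, and the decreases of Rspo3 and Sfrp5 (-4.4 and -4.27) were larger than that of Dkk2 (-3.66). Rspo4, called over all libraries, was not called without pMx replicate 2 or 3 (adjusted p up to 0.0703). Calls were gained by Dkk4 without Intact replicate 1 (adjusted p = 0.0404), by Fzd9, Notum and Wif1 without Intact replicate 2 (adjusted p = 0.0268, 0.0246 and 0.0331), by Wnt16 without pMx replicate 2 (adjusted p = 0.0471) and by Fzd6 without pMx replicate 3 (adjusted p = 0.0199).

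Genes that work with these members were read from 5 lists. Of 11 genes for Wnt secretion, receptor turnover and further co-receptors, 2 rose, 1 fell and 8 were not called in pMx versus sham, a share of 27.3% called beside 36.6% of all genes. Kremen1, a receptor for Dickkopf proteins, rose from 30.2 ± 3.34 to 68.5 ± 3.48 TPM (SD, n = 3, log2 fold change 1.16, SE 0.08, adjusted p = 4.33e-05). Gpc3, a glypican of the cell surface, fell from 17.1 ± 2.48 to 0.81 ± 0.312 TPM (log2 fold change -3.32, SE 0.21, adjusted p = 2.63e-05), and its relative Gpc4 rose by 0.46 on the log2 scale (adjusted p = 0.0195). Lgr4, a receptor for R-spondins, was not called (log2 fold change -0.31, SE 0.11, adjusted p = 0.0605).

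Of 10 other extracellular modulators, 5 rose and 3 fell in pMx versus sham, beside 17.7% and 18.9% of all genes. Cthrc1, a secreted protein known to bind Wnt and frizzled proteins and Ror2, rose in both of these comparisons. It measured 36.29, 42.31 and 29.44 TPM in the intact libraries, 246.56, 295.7 and 196.63 TPM in the sham libraries and 1078.94, 1047.54 and 987.82 TPM in the pMx libraries. The groups did not overlap, and every pMx library was above every sham library. The log2 fold change was 2.74 in sham versus intact (SE 0.16, adjusted p = 2.47e-04) and 2.09 in pMx versus sham (SE 0.16, adjusted p = 5.45e-05). Draxin, a secreted guidance protein that binds Lrp6, rose from 1.72 ± 1.26 to 16 ± 4 TPM (SD, n = 3, log2 fold change 2.71, SE 0.31, adjusted p = 2.98e-04). Shisa2, which holds frizzled receptors inside the cell, and Tpbg, a membrane inhibitor of the β-catenin branch, rose by 1.92 and 1.32 on the log2 scale (adjusted p = 5.00e-04 and 6.17e-04). Bambi rose as well, whereas Sostdc1, Shisa3 and Apcdd1 fell, 2 of these 3 as DEGs.

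Of 13 genes of planar cell polarity, the branch that orients cells in a tissue, 6 rose and 3 fell in pMx versus sham, beside 17.7% and 18.9% of all genes. Ptk7, a co-receptor of this branch, measured 6.54, 6.96 and 4.16 TPM in the intact libraries, 16.4, 18.69 and 9.9 TPM in the sham libraries and 81.23, 87.61 and 85.51 TPM in the pMx libraries. The groups did not overlap, with the pMx libraries highest and the intact libraries lowest. It rose in sham versus intact (log2 fold change 1.2, SE 0.23, adjusted p = 0.016) and in pMx versus sham (log2 fold change 2.47, SE 0.23, adjusted p = 1.24e-04). Vangl2 and Prickle1, core components, rose by 0.81 and 0.58 on the log2 scale (adjusted p = 6.54e-04 and 0.002), and the cadherin Celsr1 fell by 0.54 (adjusted p = 0.00214).

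Of 25 intracellular genes of the β-catenin branch, 4 rose, 3 fell and 18 were not called, a share of 28.0% called compared with 36.6% of all genes. The differences were mostly small. Dvl3 rose by 0.5 and Dvl1 fell by 0.25 on the log2 scale (adjusted p = 0.00154 and 0.00722), both of which encode Dishevelled proteins. Dact1, a Dishevelled-binding inhibitor, fell from 12.4 ± 2.25 to 5.44 ± 1.27 TPM (log2 fold change -1.06, SE 0.19, adjusted p = 0.0027), and Tcf7l1, a mostly repressing TCF factor, fell from 13.7 ± 1.69 to 7.92 ± 0.562 TPM (SD, n = 3, log2 fold change -0.72, SE 0.14, adjusted p = 0.00472).

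Of 9 other known target genes, 5 rose and 3 fell in pMx versus sham, beside 17.7% and 18.9% of all genes. Ccn4, also called Wisp1, rose from 3.51 ± 0.252 TPM in intact to 14.5 ± 4.38 TPM in sham and 72.9 ± 2.92 TPM in pMx (SD, n = 3, log2 fold change 2.3, SE 0.19, adjusted p = 7.44e-05 in pMx versus sham). Twist1, a transcription factor of mesenchymal cells, rose by 0.82 on the log2 scale (adjusted p = 0.002). Sp5, a transcription factor often used as a readout of β-catenin, was listed at 0 in all pMx libraries and averaged 0.3 ± 0.08 TPM in sham (adjusted p = 0.00205), and met the detection rule through intact and sham libraries alone. Tnfrsf19 fell from 1.56 ± 0.264 to 0.293 ± 0.17 TPM (SD, n = 3, adjusted p = 0.00524). The target genes did not share 1 direction. All 6 cell cycle genes rose in the same comparison, and their part in these changes was not tested.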

How the data were processed

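The authors sequenced oligo-dT-selected, strand-marked libraries at BGI and deposited TPM values, 1 column per library, produced through Dr. Tom. The submitters' processing notes name HISAT2 2.0.4 and the build mRatBN7.2. The counting tool and annotation are not given in the sources used here. All 9 columns were mapped to samples by title.

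From the deposited TPM, log2(TPM + 1) of the 16512 genes above 0 in 3 or more libraries was fitted in limma 3.58.1 (R 4.3.3) with 1 mean per group, eBayes with a trend and Benjamini-Hochberg adjustment over all genes. The fit was tested on simulated data. Levels, sums and shares were computed from TPM in pandas 2.3.3, and figures drawn in Matplotlib 3.10.9.

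Members and gene lists were chosen with earlier results of these data known. Library values are given for DEGs, the gene with the highest mean of each role, Wnt5a, Axin2, Lef1, Tcf7, Nkd1, Nkd2 and Notum, and for Cthrc1 and Ptk7, which were chosen after their values were seen. Up to 3 other genes per role with the largest change and up to 4 per list with the smallest adjusted p are named. Other members, and the other called genes of the extracellular modulators, are named to account for them.

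As alternatives, pseudocounts of 0.1 and 0.01 were tried, besides no filter or a filter at a mean of 1 TPM, quantile and median-of-ratios scaling, a fit on 6 libraries, robust eBayes, a replicate block, other thresholds and leaving out each library. A covariate for skeletal muscle was chosen after seeing the data. Promoters came from RefSeq GRCr8, a newer build than that of the reads.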

Additional observations from a re-analysis of the deposited data

How the results depend on the processing

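No called member changed direction under any alternative. With the adjusted p alone in place of both thresholds, the 13, 1 and 15 DEGs of pMx versus sham, sham versus intact and pMx versus intact became 26, 7 and 25, since the fold threshold was dropped. In the same order, pseudocounts of 0.1 and 0.01 each gave 16, 3 and 19 DEGs. At an adjusted p below 0.01, 18, 5 and 22 members were called. Quantile scaling gave 23, 8 and 27 called members, and the filter at a mean of 1 TPM gave 22, 8 and 24. Leaving out 1 library at a time gave 12 to 13 DEGs and 22 to 30 called members in pMx versus sham, 1 to 4 and 5 to 12 in sham versus intact, and 14 to 17 and 23 to 27 in pMx versus intact. In sham versus intact, the DEGs were 2 without Intact replicate 1, 4 without Intact replicate 2 and 3 without Sham replicate 3, and 12 members were called without Intact replicate 3. The cause was not tested. Of the 26, 7 and 25 calls, 20, 5 and 22 held in all 9 of these fits. The labels do not state whether the replicate numbers pair the libraries. Each library was taken as its deviation from the group mean and correlated across genes. Libraries with the same number gave 0.0346, 0.37 and 0.48 between pMx and sham, where the other pairs gave -0.47 to 0.31. The same-number values were 0.00161, -0.4 and -0.49 between sham and intact, and -0.38, -0.44 and -0.66 between pMx and intact. Deviations of 3 libraries from their own mean are not independent, so these values cannot decide whether the libraries were paired. In the fit with a replicate block, the DEGs were 13, 1 and 15 and the called members 25, 7 and 25, Fzd3 being the call lost. In fits on the 6 libraries of each comparison, 31, 5 and 24 members were called, with Rspo3 and Dkk3 lost in sham versus intact. With the skeletal muscle covariate, 28, 10 and 27 members were called. Shares of all genes were computed for the main setting alone. The counts under the alternatives therefore do not show whether these members moved more than other genes. Depth is unknown for these TPM values, so the reads behind members below 1 TPM cannot be given.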
